A study of Mus musculus with 12 samples.

Results

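The lipid metabolism genes Elovl6, Scd2, Srebf1, Hmgcs1 and Lpl were followed in mouse kidney cortex across diabetic and menopausal/diabetic animals. They were chosen by gene symbol, and every clone carrying 1 of these symbols was used. These 5 of 6786 named genes were represented by 8 of 15600 clones: 4 of Elovl6 and 1 of each other gene. The clones are called here by the gene and the platform's probe number. All 8 passed the filter that left out the dimmest 25% of clones.

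Diabetic mice had received STZ (streptozotocin), which kills the pancreatic cells that make insulin, and menopausal/diabetic mice had received both VCD and STZ. VCD (vinylcyclohexene diepoxide) depletes the ovary of its small follicles over time. All animals therefore shared STZ, and RNA was taken 6 weeks after it. Each group had 3 mice, and no strain or age is stated in the labels. A group without STZ was not analysed here. RNA was hybridised in pairs to 12 two-colour arrays, 6 across the groups and 3 within each group, so that each mouse was on 4 arrays, 2 in each dye.

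Elovl6 lengthens saturated and monounsaturated fatty acids, and Scd2 is 1 of the stearoyl-CoA desaturases that place the first double bond in them. Srebf1 encodes the SREBP-1 transcription factors, which drive fatty acid synthesis and which insulin induces in liver. Hmgcs1 makes HMG-CoA in the cytosol, an early step of cholesterol synthesis and a classical target of the related factor SREBP-2. Lpl, lipoprotein lipase, acts on the capillary wall and releases fatty acids from circulating triglyceride. In kidney cortex, the proximal tubule normally burns fatty acids for much of its energy.

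Promoter sequence from RefSeq on the GRCm38.p6 build was matched for 3 of the 5 genes, and the 250 bases before the annotated start are shown for Hmgcs1 and Elovl6 because they differ in a sterol regulatory element. The element was searched as TCACNCCAC on both strands, and its match is in capitals. It lay in 1.05% of 32851 promoter windows of this length.
Hmgcs1, chr13:119690101-119690350, plus strand: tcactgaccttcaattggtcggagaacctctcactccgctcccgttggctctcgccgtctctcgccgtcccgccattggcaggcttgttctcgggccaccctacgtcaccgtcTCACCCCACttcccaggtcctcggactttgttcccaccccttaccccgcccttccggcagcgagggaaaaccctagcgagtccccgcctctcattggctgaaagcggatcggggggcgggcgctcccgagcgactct
Elovl6, chr3:129532136-129532385, plus strand: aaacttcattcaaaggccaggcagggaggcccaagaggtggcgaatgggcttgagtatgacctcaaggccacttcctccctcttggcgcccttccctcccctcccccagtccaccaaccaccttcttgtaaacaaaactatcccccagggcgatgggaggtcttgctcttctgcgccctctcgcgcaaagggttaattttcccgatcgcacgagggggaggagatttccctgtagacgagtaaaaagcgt
The Hmgcs1 window held 1 match, which begins 137 bases before the start, together with 3 CCAAT boxes (CCAAT, in 33.8% of windows) and 2 GC boxes (GGGCGG, in 32.7%), each read on both strands. None of the 3 motifs was found in the Elovl6 window. The windows of the 3 annotated Srebf1 starts held no match to the sterol element. A match describes the letters only, and no binding was measured.

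An array's median spot exceeded its local background by 25.3 to 209 intensity units with Alexa Fluor 546 and by 14.6 to 107 with Alexa Fluor 647, and 30.5% to 57.4% of spots were called detected. The defining proximal tubule transcripts Lrp2, Gatm and Miox were at the 99.4th, 92.0th and 98.8th percentiles of brightness. Diabetic mouse 3 stood apart from the rest in these genes, with a mean level of -1.23 (log2) against 0.14 and 0.36 in diabetic mice 1 and 2 and 0.08 to 0.38 in the menopausal/diabetic mice. Calb1, a distal tubule marker, was at -1.36 in diabetic mouse 3 and at -0.14 to 0.63 in the other 5. The differences among diabetic mice in these 4 markers passed the F test (limma, adjusted p 0.003 to 0.013). The array pairing diabetic mice 2 and 3 carries another animal identifier inside its file for both dyes, and it was used as titled. The titles were weakly borne out by the ratios: predicted from the other 11 arrays and without the dye term, an array's ratios correlated across clones with those measured at -0.24 to 0.48, below 0 for 6 of 12 arrays.

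For each clone, a level per mouse was estimated from the 12 log2 ratios together with a dye term. These levels are relative, adding up to 0 over the 6 mice, and say nothing of how abundant 1 gene is beside another. No member clone passed the threshold of an adjusted p of 0.05 (limma, 3 against 3 mice), and no clone of the 11696 tested did (0.0%). The members' adjusted p ran from 0.47 to 1.00. At an unadjusted p under 0.05 there were 4 of 8 member clones, 3 higher and 1 lower in menopausal/diabetic mice, against 8.46% of all clones tested, 5.23% higher and 3.22% lower. The groups did not overlap for 3 of the 8 clones, 2 higher and 1 lower, against 14.3% of all clones, 7.72% higher and 6.62% lower. The members were chosen with earlier results of these data known, so these shares are no independent support for a difference. The median difference over the 8 clones was 0.07, against -0.0011 over all clones tested. It was 0.0076 with 1 loess curve per print block, 0.014 without diabetic mouse 3 and -0.13 with the deposited ratios, so no direction is read from it. Leaving out a mouse, here and below, dropped its 4 arrays and refitted the levels of the other mice. A change in the difference therefore need not come from the left-out mouse's own level. In these bulk samples, fewer cells of a type and less RNA per cell cannot be told apart.

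**Figure D1:**
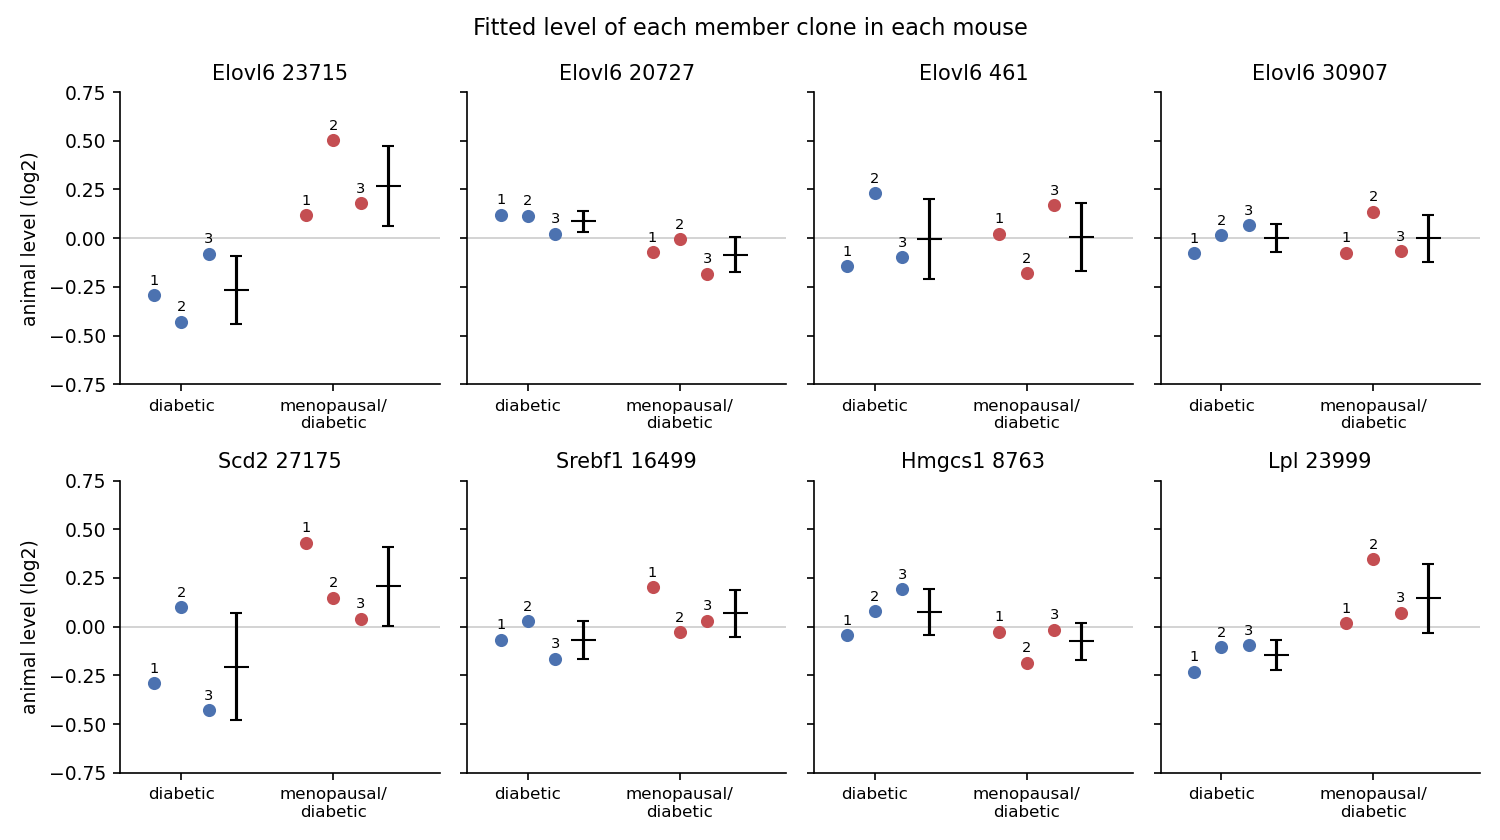
Each panel shows 1 member clone, with the fitted level of each mouse (log2, points numbered by mouse) and the mean and SD of each group of 3 (bars). The menopausal/diabetic mice all lie above the diabetic mice for Elovl6 23715 and Lpl 23999 and all below them for Elovl6 20727, and the groups overlap in the other 5 panels.

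The Elovl6 clones gave unlike answers. Elovl6 23715, the brightest of the 4, stood at -0.29, -0.43 and -0.08 in diabetic mice 1 to 3 and at 0.12, 0.50 and 0.18 in menopausal/diabetic mice 1 to 3. All menopausal/diabetic mice lay above all diabetic mice, and the difference was 0.53 ± 0.13 (log2, SE, n = 3 against 3; 1.45-fold), with an unadjusted p of 0.0045 and an adjusted p of 0.47 by limma. Elovl6 20727, of nearly the same brightness (75.8th against 76.4th percentile), stood at 0.12, 0.12 and 0.02 in the diabetic mice and at -0.07, -0.0048 and -0.18 in the menopausal/diabetic mice. Here all menopausal/diabetic mice lay below, by -0.17 ± 0.06 (limma, unadjusted p 0.029, adjusted p 0.55). With 1 loess curve per print block its groups overlapped and the difference was -0.13 ± 0.06 (limma, unadjusted p 0.079), and leaving out 1 mouse at a time gave -0.26 to -0.091, the latter without menopausal/diabetic mouse 3.

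The other two Elovl6 clones were dimmer and showed no shift between the groups. Elovl6 461 was at -0.14, 0.23 and -0.10 in the diabetic and 0.02, -0.18 and 0.17 in the menopausal/diabetic mice, a difference of 0.0076 ± 0.13. Elovl6 30907 was at -0.08, 0.02 and 0.07 in the diabetic and -0.07, 0.14 and -0.07 in the menopausal/diabetic mice, a difference of -0.0034 ± 0.07. The groups overlapped for both clones. Elovl6 23715 was called detected on 8 of 12 arrays, Elovl6 20727 on 11, Elovl6 461 on 6 and Elovl6 30907 on 3. The 2 spots of each clone followed each other closely across the 12 arrays (r = 0.95, 0.96, 0.81 and 0.83 in that order).

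Set directly against each other, Elovl6 23715 minus Elovl6 20727 was -0.41, -0.55 and -0.10 in the diabetic mice and 0.19, 0.51 and 0.36 in the menopausal/diabetic mice. The gap between the clones thus differed by 0.71 between the groups, without overlap. It kept its sign under the alternatives tried but not its size, with 0.32 when the channels were scaled separately, 0.45 without background correction, 0.48 with 1 loess curve per print block and 1.60 with the deposited ratios. The clones were compared because they were known to disagree in sign in these data, and these 2 had the highest and lowest differences among the Elovl6 clones. The gap and its lack of overlap are therefore no independent support for a disagreement. The exact two-sided permutation test gave p = 0.1, the smallest that 3 against 3 mice allow, and 0.3 after adjustment over the 6 pairs of Elovl6 clones. Elovl6 23715 against Elovl6 30907 gave 0.54 with the same p, and the other 4 pairs gave an exact p of 0.2 to 0.9. Across the 12 arrays, the 6 pairs of Elovl6 clones correlated at -0.47 to 0.10, with 4 of 6 below 0. Over all 2492 pairs of kept clones of 1 gene, the median correlation was 0.20 (quartiles -0.07 and 0.49), and 30.3% were below 0. Only 58.3% of these pairs had group differences of the same sign, so opposite signs are not particular to Elovl6. The arrays share animals, dyes and spots' positions, so these correlations are descriptions.

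Elovl6 23715 and the Lpl clone lay in the same print block, the upper left of 48, where many unrelated clones shared their direction. In that block 27.2% of 235 clones were higher in menopausal/diabetic mice at an unadjusted p under 0.05, and in the upper left 3 blocks 31.2% of 669, against 3.65% of the 11027 clones elsewhere. The median difference of the block was 0.11. Within it, Elovl6 23715 stood at the 97.9th percentile of differences and Lpl 23999 at the 82.6th. With 1 loess curve per print block, the share higher in the block was 8.94%, still above the 3.92% of clones outside the upper left 3 blocks. The difference of Elovl6 23715 then was 0.36 ± 0.09 (limma, unadjusted p 0.0074, adjusted p 0.62), still without overlap of the groups, and that of Lpl 0.05 ± 0.09. Under that normalization 2 of 8 member clones, Elovl6 23715 and Scd2, had an unadjusted p under 0.05, against 7.75% of all clones. The other 3 Elovl6 clones lay in other blocks. That of Elovl6 20727 had a median difference of -0.04, and Elovl6 20727 stood at its 11.5th percentile of differences. In that block 11.5% of 226 clones had an unadjusted p under 0.05 but only 1.77% were higher, so most of these were lower. Over all clones tested the shares were 8.46% in either direction, 5.23% higher and 3.22% lower.

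**Figure D2:**
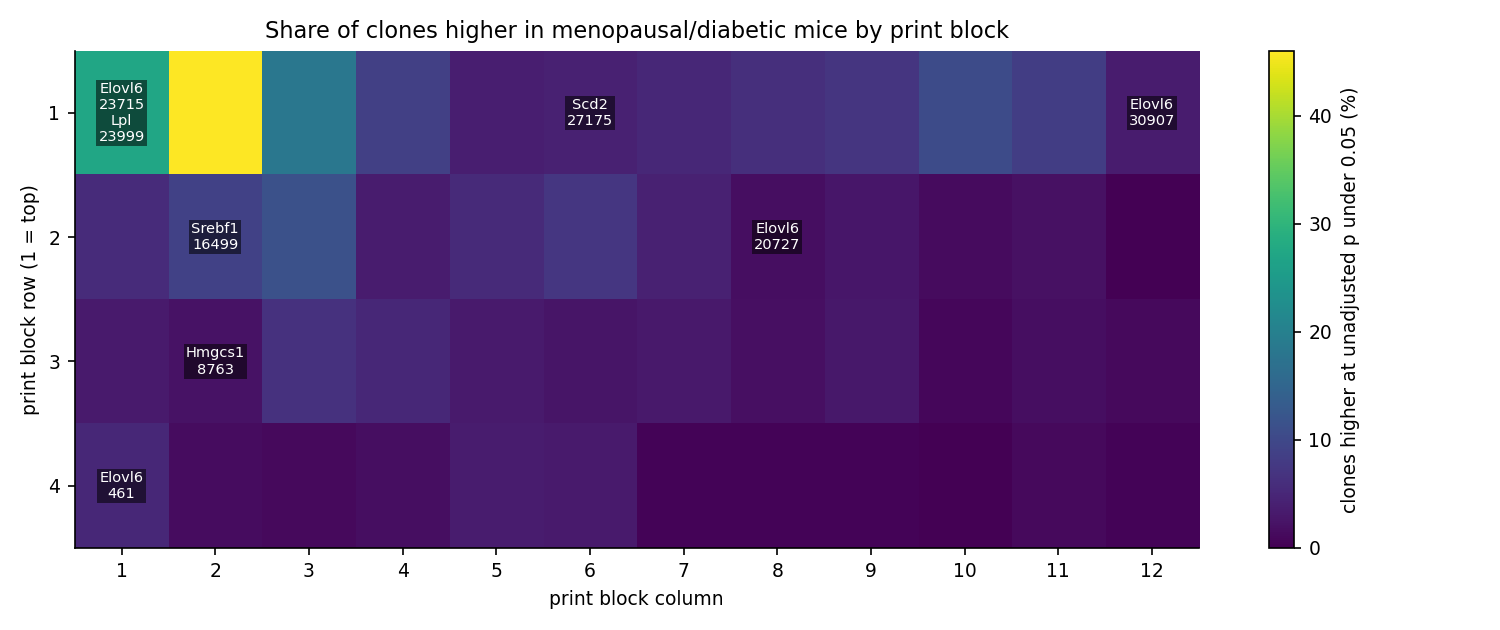
The 48 print blocks of the slide are drawn by row and column, and the colour gives the percentage of clones higher in menopausal/diabetic mice at an unadjusted p under 0.05. Elovl6 23715 and Lpl 23999 share the upper left block, at 27.2%, and the other 6 member clones lie in blocks of 1.77% to 8.97%.

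Scd2, the desaturase, had the second largest difference among the member clones and one that lay mostly on 1 array. Scd2 27175 stood at -0.29, 0.10 and -0.43 in diabetic mice 1 to 3 and at 0.43, 0.15 and 0.04 in menopausal/diabetic mice 1 to 3. Diabetic mouse 2 lay above menopausal/diabetic mouse 3, so the groups overlapped. The difference was 0.41 ± 0.16 (1.33-fold; limma, unadjusted p 0.036, adjusted p 0.56), and 0.40 ± 0.15 with 1 loess curve per print block. On the array of menopausal/diabetic mouse 1 and diabetic mouse 3 the ratio was 1.58, and on the other 5 arrays across the groups it ran from -0.19 to 0.69. Both spots of the clone followed each other at r = 0.99 over the 12 arrays. Without that array the difference was 0.10. Without diabetic mouse 3, whose 4 arrays include that array, the difference was 0.07, so these 2 values are not separate checks. Diabetic mouse 3 was also the mouse with low tubule markers, whose part in the Scd2 value was not tested. A second clone is annotated to both Scd2 and Scd1. It was called detected on 0 of 12 arrays, was left out by the brightness filter and was not counted as a member.

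Srebf1, the transcription factor gene, had a smaller difference in the same direction. Srebf1 16499 was at -0.07, 0.03 and -0.17 in the diabetic and 0.20, -0.03 and 0.03 in the menopausal/diabetic mice, and the groups overlapped. The difference was 0.14 ± 0.08 (limma, unadjusted p 0.13, adjusted p 0.67). It came to 0.03 without diabetic mouse 3, and to 0.0021 when the channels were scaled separately. Its highest ratio, 0.44, was on the same array as that of Scd2, and the 2 clones correlated at 0.75 over the 12 arrays (Spearman 0.41). A clone annotated to both Srebf1 and Rai1 was brighter and differed by 0.02 ± 0.06.

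Lpl 23999 was at -0.23, -0.11 and -0.10 in diabetic mice 1 to 3 and at 0.02, 0.35 and 0.07 in menopausal/diabetic mice 1 to 3. The groups did not overlap, and the difference was 0.29 ± 0.10 (1.22-fold; limma, unadjusted p 0.020, adjusted p 0.52). On the array of menopausal/diabetic mouse 2 and diabetic mouse 1 the ratio was 1.09, and on the other 5 it ran from -0.45 to 0.65. Elovl6 23715 had its highest ratio, 1.52, on the same array. Lpl and Elovl6 23715 correlated at 0.78 over the 12 arrays, with a Spearman correlation of 0.23. Without menopausal/diabetic mouse 2 the Lpl difference was -0.01, and that of Elovl6 23715 was 0.33. Without that array alone the values were 0.04 and 0.33. As normalized, Elovl6 23715 was above 0 on 6 of 6 arrays across the groups and Lpl on 4 of 6. With the dye term subtracted, Elovl6 23715 was above 0 on 6 of 6 and Lpl on 5 of 6. The Lpl ratios then ran from -0.22 to 1.32. Lpl is abundant in fat, and none of the 7 adipocyte markers listed had a clone of 1 symbol here, so the part of fat tissue in these values was not tested.

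**Figure D3:**
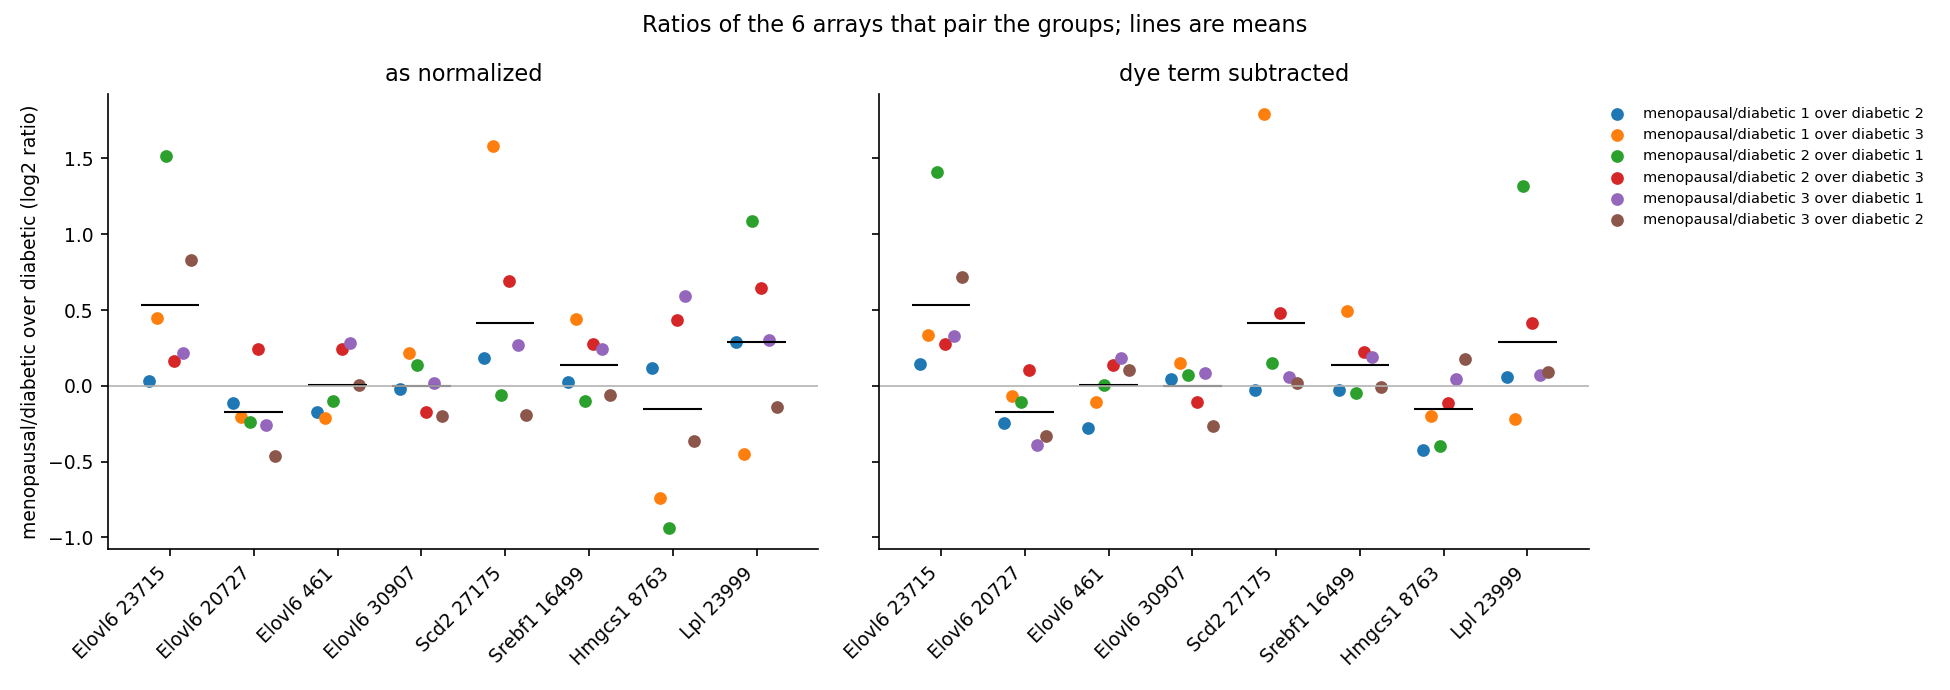
Log2 ratios of menopausal/diabetic over diabetic mice on the 6 arrays that pair the groups are shown for each member clone, as normalized (left) and with the clone's dye term subtracted (right), and lines are means. One array holds the highest point of both Elovl6 23715 and Lpl 23999 (1.52 and 1.09 at left), and another that of Scd2 27175 and Srebf1 16499 (1.58 and 0.44).

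Hmgcs1, the sterol synthesis gene with the element shown above, tended to the other side. Hmgcs1 8763 was at -0.05, 0.08 and 0.19 in the diabetic and -0.03, -0.19 and -0.02 in the menopausal/diabetic mice, with overlap of the groups. The difference was -0.15 ± 0.08 (limma, unadjusted p 0.10, adjusted p 0.65). It ran from -0.26 to -0.093 when 1 mouse was left out at a time, and from -0.24 to -0.045 when 1 array was. The value nearest 0 came without the array of menopausal/diabetic mouse 1 and diabetic mouse 2, and without that of menopausal/diabetic mouse 2 and diabetic mouse 1 it was -0.066. This clone had a strong preference for 1 dye: its ratio of Alexa Fluor 647 over 546 was below 0 on 12 of 12 arrays, with a mean of -0.54, where the 5th and 95th percentiles over all kept clones were -0.28 and 0.23. As normalized, the ratios of the 6 arrays across the groups ran from -0.94 to 0.59, and with the dye term subtracted from -0.42 to 0.18. Each mouse carried each dye on 2 arrays, so the dye term does not enter the group difference. The dye terms of Lpl (-0.23) and Scd2 (-0.21) were also low, and those of the Elovl6 clones ran from -0.13 to 0.11.

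**Figure D4:**
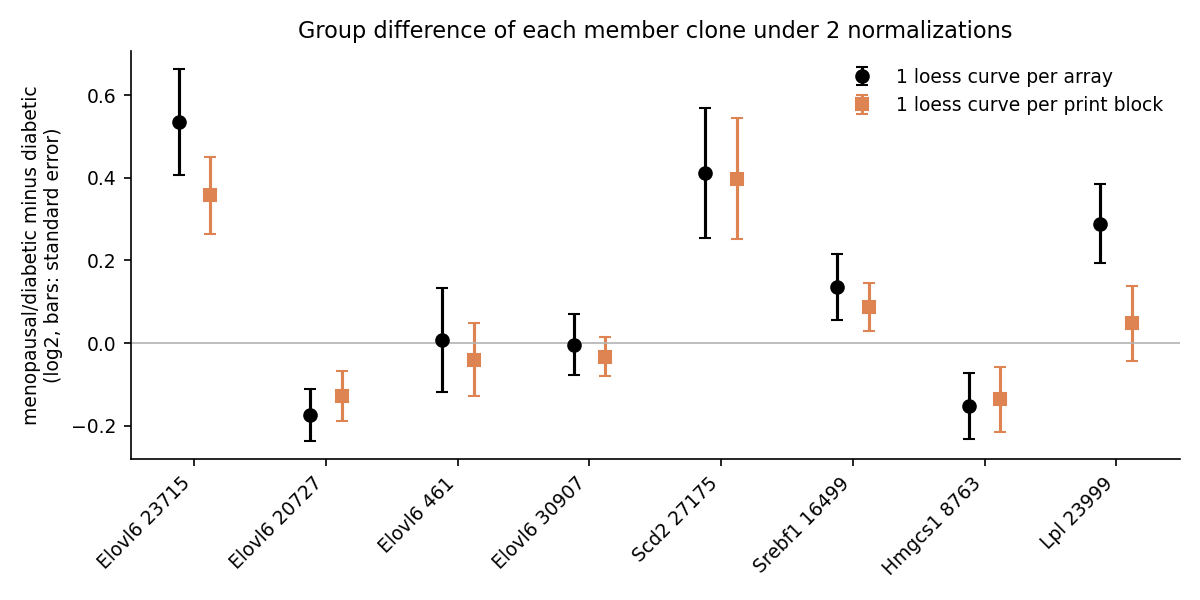
The difference between menopausal/diabetic and diabetic mice (log2, with its standard error) is shown for each member clone with 1 loess curve per array (circles) and 1 per print block (squares). Lpl 23999 moves from 0.29 to 0.05 and Elovl6 23715 from 0.53 to 0.36, and Scd2 27175 stays near 0.40.

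Within each group, the mice were compared on the error between arrays. None of the 8 clones passed the F test among diabetic mice at an adjusted p of 0.05 (limma, adjusted p 0.26 to 0.97), against 1.64% of all clones. Among menopausal/diabetic mice none did either (adjusted p 0.95 to 0.98), against 0.0% of all clones. At an unadjusted p under 0.05 there was 1 of 8 in each group, Elovl6 461 both times (0.020 and 0.043), against 12.9% and 5.16% of all clones. When the 12 arrays were taken as replicates in place of the mice, 3 of 8 clones had an unadjusted p under 0.05, against 9.75% of all clones. These were both bright Elovl6 clones (0.0096 and 0.0087) and Srebf1 (0.0497), and 0 of 8 passed after adjustment, against 0.222% of all clones.

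Genes whose ratios were most like those of each member over the 12 arrays were named, 3 per member, as a description only. For Elovl6 23715 they were Ctnnal1 (r = 0.94), Pigs (0.91) and Sde2 (0.90), all printed in the same block or the next. For Lpl they were Dhx36 (0.96), Prpf6 (0.94) and Ddx42 (0.93), again in those 2 blocks. The Spearman correlations of these Lpl genes were only 0.44, 0.28 and 0.51, against 0.69 to 0.79 for the Elovl6 genes. With 1 loess curve per print block the correlation with Ctnnal1 was 0.58, and those with Pigs, Sde2 and the Lpl genes ran from 0.81 to 0.92. For Scd2 they were Aaas (0.97), Pbx3 (0.96) and Ddx58 (0.95), and for Srebf1 Fcer1g (0.95), Golga4 (0.89) and Ttc21b (0.89). Ddx58 shares the print block of Scd2, and the others of these lie in other blocks than their member. For Hmgcs1 they were Ugdh (0.85), Cdkn2c (0.84) and 1500011B03Rik (0.84), in the same block or a neighbouring one. None of these 15 genes belongs to the lipid lists below.

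Of 91 other genes of lipid metabolism in 5 lists, 32 had a named clone and 28 passed the brightness filter, Hmgcs1 included. None of the 28 passed at an adjusted p of 0.05 (limma, lowest 0.51), and 3 had an unadjusted p under 0.05, 1 higher and 2 lower, or 10.7% against 8.46% of all clones. Their median difference was -0.02, with 13 above 0 and 15 below. These counts include genes named below whose clone was called detected on 0 of 12 arrays.

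In fatty acid synthesis, 8 of 26 listed genes were measured, with a median difference of -0.01 and 4 on each side. Me1, the malic enzyme that supplies NADPH for fatty acid synthesis, was at 0.24, 0.16 and 0.14 in the diabetic and -0.30, -0.29 and 0.06 in the menopausal/diabetic mice. The groups did not overlap, with a difference of -0.36 ± 0.10 (limma, unadjusted p 0.011, adjusted p 0.51). With 1 loess curve per print block it was -0.13, and of the 4 Me1 clones 2 lay on the same side of 0. Elovl5, which lengthens polyunsaturated fatty acids, differed by 0.19 ± 0.12, Acsl3, an acyl-CoA synthetase, by -0.16 ± 0.13, and Fasn, the fatty acid synthase, by 0.10 ± 0.09. Without diabetic mouse 3, Acsl3 was at -0.042 and Fasn at 0.023, and with 1 loess curve per print block Elovl5 was at 0.037.

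In sterol synthesis and uptake, 9 of 24 listed genes were measured, with a median of -0.01, 4 above 0 and 5 below, and none with an unadjusted p under 0.05. Hmgcs1 had the largest difference of the 9. Next came Lss, lanosterol synthase, at 0.08 ± 0.05, which was called detected on 0 of 12 arrays. Fdft1, squalene synthase, differed by -0.04 ± 0.06 and Dhcr7, the last reductase of the pathway, by -0.04 ± 0.05, and without diabetic mouse 3 by -0.11 and 0.032. Dhcr7 and Nsdhl, another of the 9, were also called detected on 0 of 12 arrays, which limits the counts above and below 0.

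Of the SREBP machinery, 3 of 10 listed genes were measured, all above 0 and none with an unadjusted p under 0.05. Fbxw7, which marks nuclear SREBPs for degradation, differed by 0.11 ± 0.12. Erlin2 and Erlin1, proteins of the endoplasmic reticulum membrane, differed by 0.09 ± 0.06 and 0.02 ± 0.05. Erlin1 was called detected on 0 of 12 arrays. Fbxw7 was at 0.019 with 1 loess curve per print block, and Erlin2 at -0.053 without diabetic mouse 3. The median difference of the 3 was 0.09, and leaving out diabetic mouse 3 gave -0.0051.

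Of the partners of lipoprotein lipase and lipid uptake, 5 of 20 listed genes were measured, with a median of -0.05, 1 above 0 and 4 below. Gpihbp1, which carries lipoprotein lipase across the capillary endothelium, differed by -0.13 ± 0.08 and was called detected on 1 of 12 arrays. With 1 loess curve per print block it was at -0.024. Pnpla2, adipose triglyceride lipase, differed by -0.12 ± 0.11, and by 0.0013 without diabetic mouse 3. Lrp1, an endocytic receptor, was at -0.05 ± 0.06 and Vldlr, the very low density lipoprotein receptor, at -0.02 ± 0.09. None of them had an unadjusted p under 0.05.

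In the list of LXR and cholesterol efflux, 3 of 11 genes were measured. Npc1, which moves cholesterol out of lysosomes, was at -0.35, 0.15 and -0.56 in the diabetic and 0.16, 0.24 and 0.36 in the menopausal/diabetic mice. The groups did not overlap, by a narrow margin, and the difference was 0.51 ± 0.17 (limma, unadjusted p 0.024, adjusted p 0.53), 0.67 with 1 loess curve per print block and 0.19 without diabetic mouse 3. Without diabetic mouse 2, its difference was 0.74, with an adjusted p of 0.042. Nr1h3, which encodes LXR alpha, an activator of Srebf1 in liver, was at 0.08, 0.15 and 0.01 in the diabetic and -0.07, -0.09 and -0.08 in the menopausal/diabetic mice. Its difference was -0.16 ± 0.05 (limma, unadjusted p 0.019, adjusted p 0.52), without overlap. Npc2, which hands cholesterol to Npc1, differed by -0.03 ± 0.10.

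**Figure D5:**
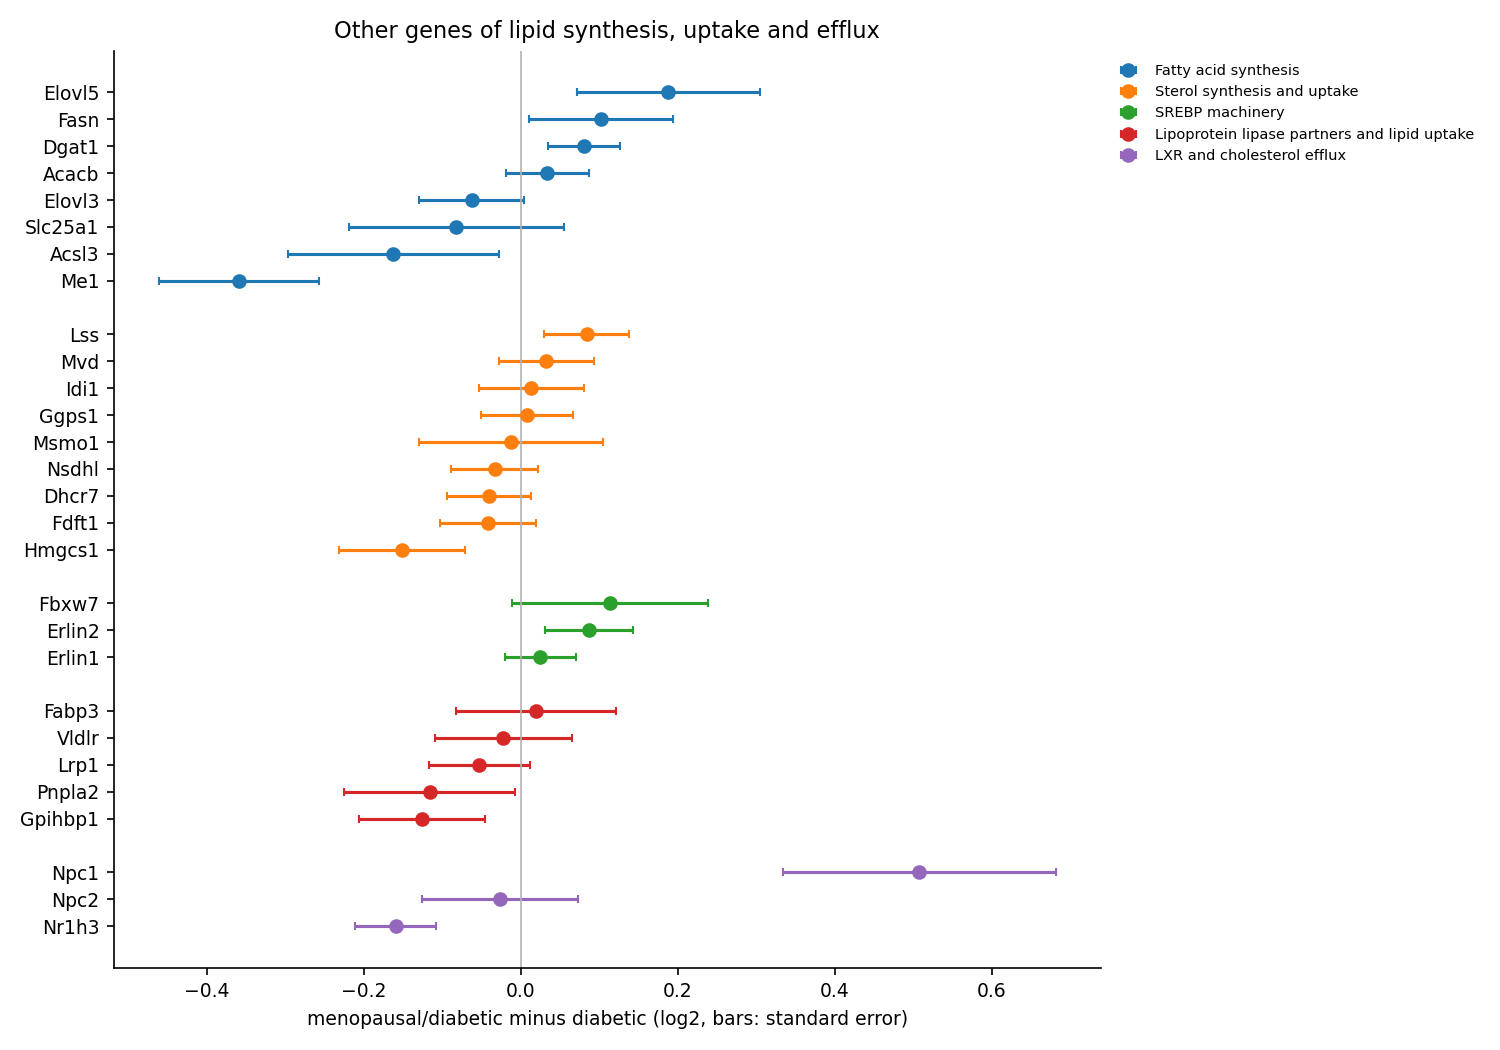
Differences between menopausal/diabetic and diabetic mice (log2, with standard errors) are shown for the 28 measured genes of the 5 lipid lists, each by its brightest clone. Npc1 lies at 0.51, Me1 at -0.36 and Nr1h3 at -0.16, and the other 25 genes lie between -0.16 and 0.19.

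Markers of cell types were read beside these values, since none of the clones tells which cells gave the signal. Of 44 listed markers in 8 lists, 15 had a named clone and 14 passed the filter. None of the 14 passed at an adjusted p of 0.05, and 1 had an unadjusted p under 0.05, against 8.46% of all clones tested. The 3 proximal tubule markers measured of 7 listed had a median difference of 0.48, and of -0.09 without diabetic mouse 3. Lrp2 differed by 0.48 ± 0.36, Gatm by 0.69 ± 0.54 and Miox by 0.29 ± 0.30. Calb1, the 1 distal tubule marker measured of 5 listed, differed by 0.87 ± 0.37, and by 0.32 without diabetic mouse 3. Scd2, Srebf1 and Npc1 were lowest in diabetic mouse 3 (-0.43, -0.17 and -0.56). They were also below 0 in diabetic mouse 1 (-0.29, -0.07 and -0.35), where Lrp2, Gatm and Miox were at 0.18, 0.11 and 0.13. Other lipid genes were highest in diabetic mouse 3, among them Hmgcs1 (0.19), Acsl3 (0.35), Slc25a1 (0.37) and Pnpla2 (0.29). The part of the tubule markers in these values was not tested. The macrophage markers Lyz2, C1qa and C1qb (3 of 7 listed) differed by -0.18 ± 0.18, -0.0042 ± 0.11 and -0.05 ± 0.08. Podxl of podocytes and Emcn of endothelium (1 of 5 listed each) differed by 0.18 ± 0.10 and 0.10 ± 0.10, and by 0.058 and -0.034 without diabetic mouse 3. Among 3 of 5 adrenal markers, Star, which carries cholesterol into mitochondria, differed by -0.17 ± 0.05 (limma, unadjusted p 0.015, adjusted p 0.52), and by -0.035 without diabetic mouse 3. Cyp11a1 and Hsd3b1, enzymes of steroid synthesis, differed by 0.0084 ± 0.04 and 0.10 ± 0.09, and Cyp11a1 was called detected on 0 of 12 arrays. The red cell genes Hbb-b1 and Alas2 (2 of 3 listed) differed by -0.23 ± 0.13 and -0.11 ± 0.14, and by -0.11 and -0.023 without diabetic mouse 3.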

How the data were processed

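The members and gene lists were chosen with earlier results of these data known. Per the file headers, the authors deposited scanner files with mean spot intensity and median local background intensity in both channels, not normalized. The authors also deposited a table of log2 ratios, with no normalization stated. Its column medians ran from -0.0548 to 0.0911, 0 of 12 columns matched the array of their own name, and all 12 matched another one (Spearman correlations of 0.625 to 0.953 in size, negative, so Alexa Fluor 546 over 647). It served as an alternative with columns re-matched by these values. Its rows were read in the order of the scanner files and not by probe number, because that order correlated more strongly with the scanner ratios. Per the labels, RNA was amplified before labelling. Scanner software is not stated in the labels.

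Spots were matched to the platform's gene symbols by numbering from the slide bottom, which gave clones of 1 gene a brightness correlation of 0.35 over 1766 pairs, against 0.083 for the next of 64 orders. Of 31200 spots, 18382 had 1 symbol, 508 several and 12310 none, and 18170 had a gene number in the reference. Clones with several symbols or none stayed unnamed. Clone positions in the genome are not given here. Background was corrected by normexp (offset 50) and ratios normalized by 1 loess curve per array (R 4.3.3, limma 3.58.1). The 2 spots of a clone were averaged (r of 0.546 to 0.859 per array), and 11696 of 15600 clones were kept. Least squares on the 12 ratios gave a level per animal and a dye term. The 6 levels were compared 3 against 3 with limma, two-sided, with Benjamini-Hochberg adjustment over all kept clones, since arrays of 1 animal are repeats. The F tests used the 12 arrays (6 residual degrees of freedom). The number of arrays limits the precision. The fit was tested on simulated data with planted differences larger than that of any member clone, so that test does not cover differences of the members' size.

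Named were all clones of the members, per member the 3 genes with the highest correlation to its brightest clone, and list genes with an unadjusted p under 0.05, with at most 4 others per list by size of the difference. Detection status was the same for both channels in all 12 files. Same-numbered animals of both groups deviated together at -0.05, -0.36 and -0.16 (correlations across clones). No array set same-numbered animals against each other, and array error alone then lowers these values. They cannot tell whether the numbers pair the animals. Alternatives varied background, normalization, filters, arrays, animals and error.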

Additional observations from a re-analysis of the deposited data

Results flagged for a closer look

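Of the ratios of the 8 member clones on the 6 arrays across the groups, tested for a single distant value with and without the dye term (16 sets), 1 set stood out, where chance flags about 1 in 20. With the dye term subtracted, Scd2 27175 had a ratio of 1.79 on the array of menopausal/diabetic mouse 1 and diabetic mouse 3, and the next highest was 0.48 and the lowest -0.03. The gap was 0.720 of the whole range, against a critical value of 0.625 for 6 values. As normalized, its ratio of 1.58 there did not pass. The ratios without the dye term were added to this test after the data were seen. The arrays share animals, so the 6 values are not independent.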

How the results depend on the processing

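No member clone passed the adjusted threshold under any of the 25 alternatives (0 of 8, or of 5 where 1 clone stood for a gene). Of 197 values, 178 kept their direction and 19 reversed. Some of these alternatives left the difference itself unchanged, and their values count among the 178. These were no intensity filter, a replicate block, arrays as replicates, no dye term and 1 clone per gene. Using only the 6 arrays across the groups, or leaving out the array of diabetic mice 2 and 3, did not change it either. The count of kept directions therefore overstates how stable they were. Elovl6 461 (0.0076) reversed with 1 loess curve per print block (-0.039), median centring (-0.13) and the deposited ratios (-0.32), and ran from -0.085 to 0.097 without 1 animal and from -0.066 to 0.083 without 1 array. Elovl6 30907 (-0.0034) was 0.16 with separate channels, and ran from -0.085 to 0.059 without 1 animal and from -0.10 to 0.058 without 1 array. Hmgcs1 was 0.0084 and Lpl -0.26 with the deposited ratios, and Lpl ran from -0.010 to 0.46 without 1 animal. Elovl6 23715 ran from 0.30 to 1.18 over the other settings, Elovl6 20727 from -0.42 to -0.018, Scd2 from 0.22 to 0.64 and Srebf1 from 0.0021 to 0.42. The gap between Elovl6 23715 and Elovl6 20727 (0.71) ran from 0.32 to 1.60 over these settings, from 0.53 to 0.92 without 1 animal and from 0.51 to 0.85 without 1 array. The causes were not tested. Of the other lipid genes, 0 to 1 passed when 1 animal was left out (Npc1, without diabetic mouse 2). Over all clones, 46 passed without diabetic mouse 2, 26 with arrays as replicates and 5 without the array of menopausal/diabetic mouse 1 and diabetic mouse 2, a set of alternatives chosen after seeing the data, against 0 otherwise. With the animal number as a replicate block, 0 of 8 member clones and 0 of all clones passed, with unadjusted p under 0.05 for 815 clones against 989 without it, and the block changed no call. With animals left out, a group of 2 is compared with a group of 3 on a spread pooled by limma. Elovl6 461 and Elovl6 30907 were called detected on only 6 and 3 of 12 arrays, which limits their values.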
